A study of Mus musculus with 6 samples.

Results

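The genes described here are 30 genes of DNA damage repair and of the checkpoints that respond to damage. They were taken by name, as the rows of the gene count table whose Ensembl identifier carries 1 of the 30 listed symbols in the GENCODE M21 annotation of the mouse genome GRCm38. The rule uses names alone, but the list of symbols was drawn up with earlier results of these data known. They are 30 of the 54532 genes in the table. All 30 were among the 13323 genes tested, which are those with a median log2 CPM (CPM, counts scaled to the size of the library) over 1 in at least 1 group. On the GFP libraries alone 27 of the 30 would have passed. *Exo1* passed through the YAP6SA and YAP5SA groups, and *Eme1* and *Rad18* through YAP5SA alone, so these 3 were let in by the groups in which they were high.

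Poly-A nuclear RNA was sequenced from cardiomyocyte (CM) nuclei of mouse hearts. Every mouse was a wildtype ICR animal that received 1e+11 viral genomes of the cardiotropic virus AAV9 under the skin at 6 d of age, and its heart was taken at 9 d. The virus carried GFP, YAP6SA or YAP5SA behind the cTnT promoter, which is active in CMs, so the GFP controls had also been infected and there was no uninfected group. YAP is the transcriptional coactivator of the Hippo pathway and binds DNA mainly through TEAD factors. In YAP5SA the serines that the kinases LATS1/2 phosphorylate are alanines, and YAP6SA carries 1 more serine-to-alanine change, which disrupts its contact with TEAD. Nuclei were pulled down with an antibody to PCM-1, a protein at the envelope of CM nuclei. There were 2 libraries a group, and the labels give each library a batch number, with 1 library of each of the 3 groups in batch 1 and 1 in batch 2. What the batches share is not stated. The labels speak of 2 hearts for each virus without saying that a library is 1 heart, so that p-values measure the spread between these libraries.

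The libraries held 14552847 to 19615627 reads on genes, at which 3 counts, the most that a count of 0 allows, are 0.153 to 0.199 CPM (counting error alone). No member was at 0 in any library. Summed over 10 CM markers the level was 49700 and 36100 CPM in the YAP5SA libraries against 56400 to 73100 CPM in the other 4, and 2 of the 10 were called lower in YAP5SA than in GFP. The 10 proliferation markers summed to 470 and 689 CPM in YAP5SA and to 145 to 178 CPM in the other 4 libraries, and all 10 were called higher in YAP5SA than in GFP. Of 8 macrophage markers 2 were called higher (95.5 and 141 CPM in sum, against 65.9 and 94.1 in GFP), of 6 mural cell markers 1 was called lower, and none of the 8 fibroblast, 8 endothelial or 6 erythroid markers was called. None of these markers was at 0 in all libraries. The part of these shifts in the repair genes' values was not tested, and in bulk nuclei a change in the share of a cell type cannot be told apart from a change in RNA per nucleus. *Yap1* itself had 139 and 130 CPM in GFP, 122 and 130 in YAP6SA and 138 and 102 in YAP5SA, so its counts do not check the labels.

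A double-strand break can be repaired without loss by homologous recombination. The ends are cut back to single strands, BRCA1 and its partners bring in BRCA2, and the broken strand is then paired with the intact sister. The Fanconi anaemia proteins free a replication fork from a crosslink between the strands and hand the resulting break to the same machinery. Mismatch repair removes wrongly paired bases left by the replication polymerases. The kinases ATM and ATR sense breaks and stalled forks and act through CHEK2 and CHEK1 to hold the cell cycle. Recombination uses the sister chromatid, and many of its genes are transcribed mainly in dividing cells. CMs leave the cell cycle in the first days after birth.

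In YAP5SA OE CMs 17 of the 30 genes rose against GFP and 0 fell, at a false discovery rate (FDR) under 0.05 in edgeR's quasi-likelihood test adjusted by the Benjamini-Hochberg method over all 13323 genes. Among all genes tested 12.8% were called higher and 9.18% lower in this comparison. The median log2 fold change of the 30 was 1.10 (0.99 within batch 1 and 1.15 within batch 2), and that of all genes was -0.00. In YAP6SA OE CMs 0 of the 30 were called in either direction against GFP, where 0.045% of all genes were called higher and 0% lower, and the median of the 30 was 0.09. The level of all 30 genes together was 702 and 741 CPM in GFP, 711 and 766 CPM in YAP6SA, and 979 and 1180 CPM in YAP5SA. Both YAP5SA libraries lay above the other 4 libraries for 22 members (22.7% of all genes did) and below them for 2 (21.5% of all genes). When 1 of the 6 libraries was left out, between 8 and 22 members were called in YAP5SA against GFP. The lowest count came without GFP replicate 2 (8, all higher), where the share of all genes called higher also fell, to 4.20%. The highest came without YAP5SA replicate 1 (21 higher, and *Mus81* lower), where 19.4% of all genes were called higher and 17.1% lower. Among the 27 members that passed the filter in GFP alone, 14 were called higher and 0 lower, a count made after the data were seen.

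**Figure D1:**
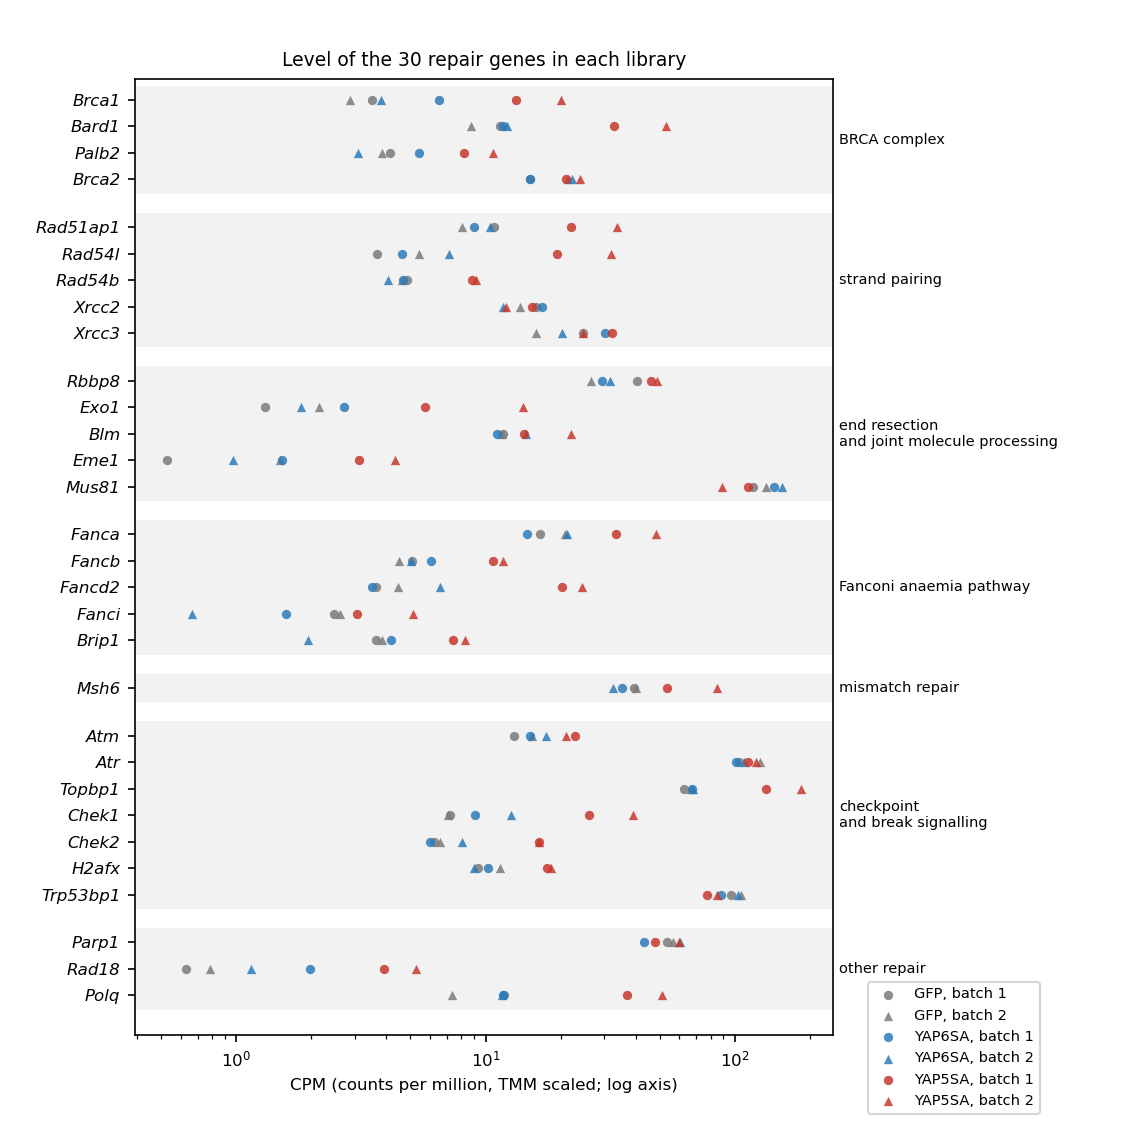
CPM (log axis) of each of the 30 genes in each of the 6 libraries, grouped by role; circles are batch 1 and triangles batch 2, with GFP in grey, YAP6SA in blue and YAP5SA in red. For 22 genes both red symbols lie to the right of the other 4, whereas the blue and grey symbols are interleaved for most genes.

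**Figure D2:**
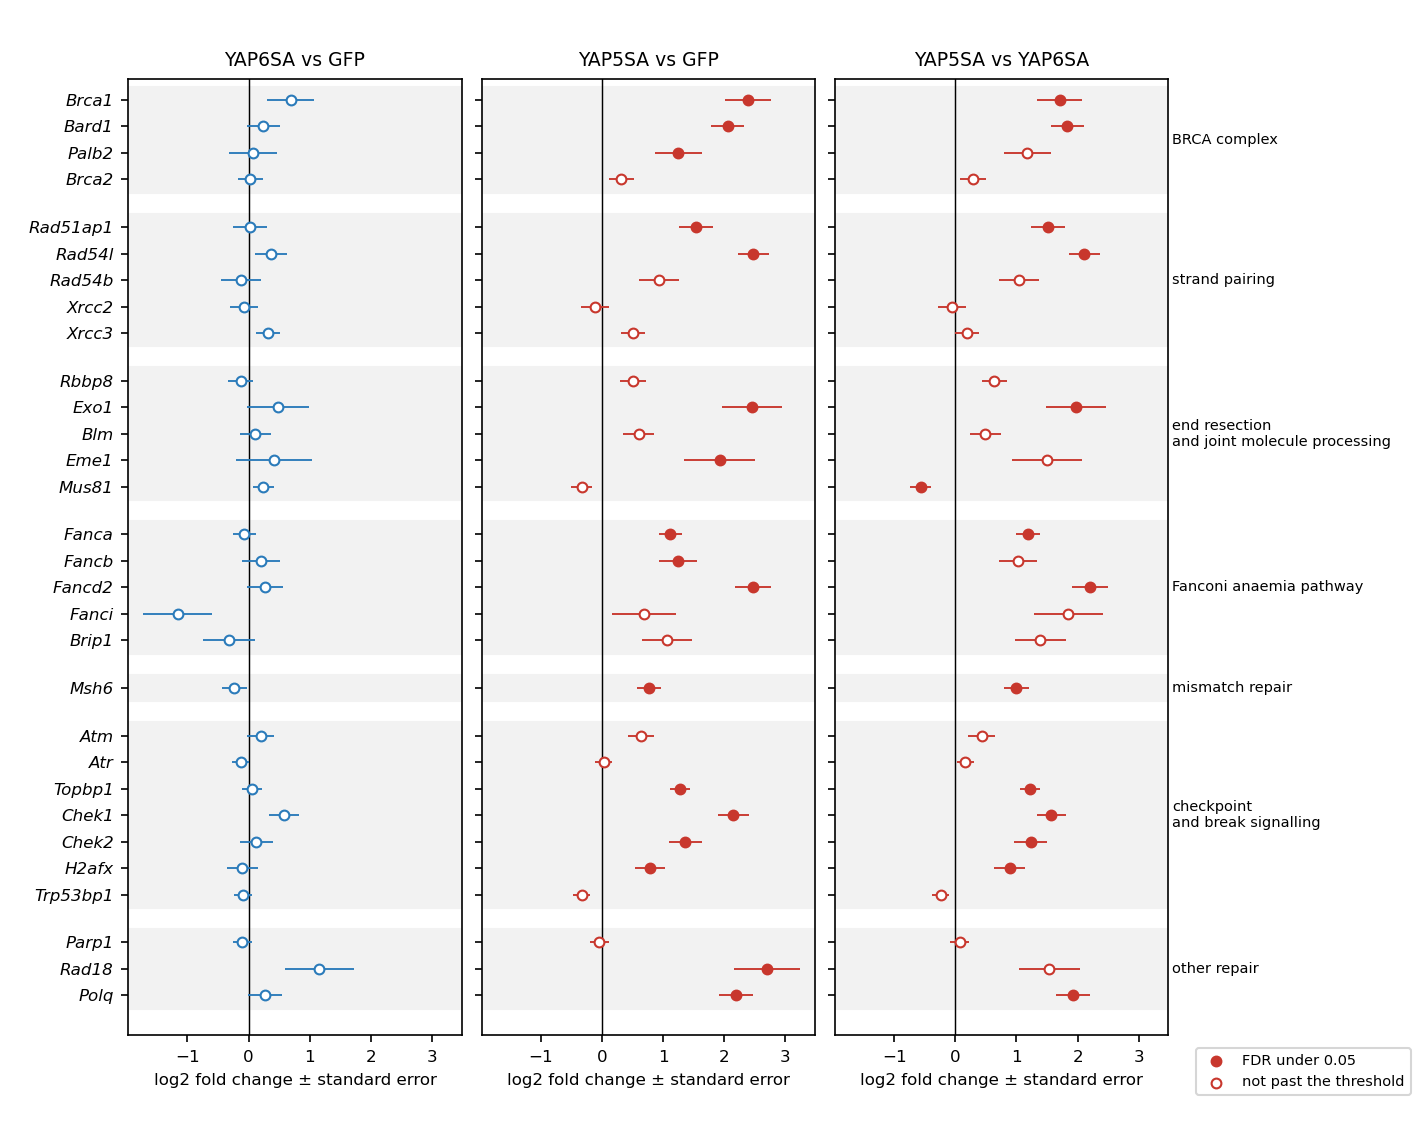
Log2 fold change with its standard error for each of the 30 genes in YAP6SA against GFP, YAP5SA against GFP and YAP5SA against YAP6SA, with filled symbols for FDR under 0.05 in edgeR's test. The first panel has no filled symbol, the second has 17, all to the right of 0, and the third has 14, of which *Mus81* alone is to the left.

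The stretch before a gene's start was searched for letters that cell cycle and TEAD factors are known to bind. RefSeq windows of GRCm38.p6 from 250 bases before to 50 bases after a start were at hand for 24 of the 30 members (26 windows). No window was at hand for *H2afx*, *Fancd2*, *Exo1*, *Xrcc2*, *Rbbp8* and *Rad54b*. On either strand, the 8-letter E2F forms TTTCCCGC, TTTGGCGC and TTTCGCGC occurred in 5 of the 26 windows (19.2%) and in 606 of all 32851 windows (1.84%). The 5 belong to *Bard1*, *Topbp1*, *Chek2* and *Msh6*, which rose in YAP5SA, and to *Brca2*, which did not pass the threshold. TTTGAA, the cell cycle homology region, occurred in 3 windows (11.5%, against 17.9% of all), those of *Bard1*, *Eme1* and *Polq*. GGAATG, the TEAD letters, also occurred in 3 (11.5%, against 14.7% of all), of which 2 overlap at *Rad18* and 1 is at *Polq*. The shorter forms TTCCCGC and TTGGCGC, which were chosen after the windows had been seen and lie within the first and second 8-letter forms, occurred in 12 member windows (46.2%) and in 6.81% of all. Member windows were richer in G and C (median 57.3%) than all windows (52.7%). These are matches of letters in a short window and not binding sites. Windows were at hand for 14 members that passed the threshold in YAP5SA and for 10 that did not. Of these, 4 and 1 held an 8-letter E2F form, a split that was not tested. Their stretches are shown with the E2F letters in capitals on the strand of the gene:
Bard1: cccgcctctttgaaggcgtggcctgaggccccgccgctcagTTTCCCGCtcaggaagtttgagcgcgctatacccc
Topbp1: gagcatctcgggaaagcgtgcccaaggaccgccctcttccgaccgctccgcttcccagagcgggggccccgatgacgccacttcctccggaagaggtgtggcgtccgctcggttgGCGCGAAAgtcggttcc
Chek2: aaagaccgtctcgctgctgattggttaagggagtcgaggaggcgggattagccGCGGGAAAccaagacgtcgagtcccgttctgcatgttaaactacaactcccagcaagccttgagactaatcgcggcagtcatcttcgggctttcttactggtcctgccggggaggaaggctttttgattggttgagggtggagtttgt
Msh6: ctcctcccgacTTTCCCGCcagcggcggcc
Brca2: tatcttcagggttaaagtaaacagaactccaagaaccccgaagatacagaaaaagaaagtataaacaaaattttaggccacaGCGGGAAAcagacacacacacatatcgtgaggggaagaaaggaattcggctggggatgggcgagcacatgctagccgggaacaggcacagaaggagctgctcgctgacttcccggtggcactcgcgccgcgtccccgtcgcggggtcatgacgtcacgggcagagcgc
The *Bard1* stretch is chr1:71103147-71103222 on the minus strand, *Topbp1* is chr9:103305083-103305214, *Chek2* is chr5:110839778-110839978, *Msh6* is chr17:87975054-87975083 and *Brca2* is chr5:150522371-150522620, the last 4 on the plus strand. For *Bard1*, *Topbp1*, *Chek2* and *Brca2* the stretch holds no base of an exon annotated in GENCODE M21, and the letters start at positions -209, -129, -152 and -168, where -1 is the base before the RefSeq start. In *Msh6* they start at position 16, within the first exon, and the 30 bases around them are shown. In *Topbp1*, *Chek2* and *Brca2* the capitals are the reverse complement of the form searched.

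*Brca1* and *Bard1*, whose products form the ubiquitin ligase that promotes recombination at a break, rose several fold in YAP5SA OE CMs. *Palb2*, which bridges BRCA1 to BRCA2, rose 2.38-fold. *Brca2*, which acts after them in recombination, did not pass the threshold. *Brca1* (chr11:101488764-101551955, minus strand) had 3.52 and 2.87 CPM (batch 1 and batch 2) in GFP, 6.51 and 3.82 in YAP6SA, and 13.2 and 20.1 in YAP5SA. Both YAP5SA libraries were thus above every other one, and the log2 fold change against GFP was 2.39 ± 0.38 (SE; 5.25-fold, edgeR FDR 0.00268). Its YAP6SA values were also above both GFP values, but that difference of 0.69 ± 0.38 was not past the threshold (edgeR FDR 0.865). *Bard1* (chr1:71027498-71103146, minus strand) gave 11.4 and 8.75 CPM in GFP, 11.7 and 12.2 in YAP6SA, and 32.8 and 53.0 in YAP5SA, a rise of 2.06 ± 0.27 (4.18-fold, edgeR FDR 0.00111). For *Palb2* the values were 4.15 and 3.85, 5.39 and 3.09, and 8.21 and 10.7 CPM in the same order of groups. The YAP5SA values did not overlap the rest, and the log2 fold change was 1.25 ± 0.38 (edgeR FDR 0.0408). *Brca2* gave 15.1 and 21.5, 15.1 and 22.3, and 21.1 and 24.0 CPM. Its groups overlapped, batch 2 was the higher one in all 3, and its log2 fold change in YAP5SA was 0.32 ± 0.21 (edgeR FDR 0.308). Per base of exon, *Palb2* stood at 0.510 and 0.333 of the *Brca2* level (RPKM, the CPM per kilobase of exon) in GFP. This ratio was 0.663 and 0.258 in YAP6SA and 0.722 and 0.829 in YAP5SA. The *Palb2* call was lost without the batch term (edgeR FDR 0.0536), without GFP replicate 1 (0.149), without GFP replicate 2 (0.212) and without YAP5SA replicate 2 (0.271).

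Of the 5 genes that act in strand pairing, *Rad54l* and *Rad51ap1* rose in YAP5SA and the other 3 were not past the threshold. *Rad54l* (chr4:116094264-116123690, minus strand) encodes a motor that drives strand exchange. It had 3.68 and 5.42 CPM in GFP, 4.63 and 7.15 in YAP6SA, and 19.3 and 32.0 in YAP5SA. No other library came near the YAP5SA pair, and the log2 fold change against GFP was 2.48 ± 0.26 (5.56-fold, edgeR FDR 0.000392). *Rad51ap1*, which aids the pairing of the strands, gave 10.8 and 8.03, 8.95 and 10.4, and 22.1 and 33.7 CPM, a rise of 1.54 ± 0.28 (edgeR FDR 0.00517). That call was lost without GFP replicate 2 (edgeR FDR 0.0794). *Rad54b*, a relative of *Rad54l*, gave 4.84 and 4.64 CPM in GFP and 8.81 and 9.19 in YAP5SA, with its YAP6SA values of 4.68 and 4.06 beside those of GFP. The YAP5SA pair did not overlap the rest, yet the log2 fold change of 0.93 ± 0.33 stayed outside the threshold (edgeR FDR 0.0677). Exons of other genes cover 35.9% of the *Rad54b* exons (on both strands) and 15.4% of those of *Rad54l* (on the opposite strand). Reads that could belong to more than 1 gene are left out of the counts. Whether the counts separate the strands was not checked, so the part of the reads lost is not known. *Xrcc2* and *Xrcc3*, which also act in recombination, had log2 fold changes of -0.12 ± 0.23 (edgeR FDR 0.735) and 0.51 ± 0.19 (edgeR FDR 0.0889). *Xrcc2* ran from 11.8 to 16.8 CPM over all 6 libraries, with the groups interleaved.

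Among the 5 genes of resection and of the cutting of joined strands, *Exo1* and *Eme1* rose and the log2 fold changes ran from -0.33 to 2.46. *Exo1* (chr1:175880581-175913489, plus strand), the exonuclease of long-range resection and of mismatch repair, had 1.31 and 2.15 CPM in GFP, 2.70 and 1.82 in YAP6SA, and 5.70 and 14.1 in YAP5SA. The YAP5SA libraries were far apart from each other and both above the rest, with a log2 fold change of 2.46 ± 0.49 (edgeR FDR 0.00783) that lost its call without YAP5SA replicate 2 (edgeR FDR 0.0645). *Rbbp8*, whose product CtIP starts resection, gave 40.5 and 26.6, 29.2 and 31.5, and 46.0 and 48.7 CPM and was not past the threshold (0.51 ± 0.21, edgeR FDR 0.108). *Blm*, the helicase that dissolves joined molecules, also missed it (0.60 ± 0.25, edgeR FDR 0.109). *Eme1* and *Mus81* encode the 2 subunits of 1 nuclease, which cuts joined strands and stalled forks. *Eme1* was low in GFP, at 0.526 and 1.5 CPM, and had 1.53 and 0.97 CPM in YAP6SA and 3.11 and 4.32 in YAP5SA, which lay above the rest. Its log2 fold change was 1.93 ± 0.58 (edgeR FDR 0.04), and the call was lost without the batch term (0.0574), without GFP replicate 1 (0.262) or 2 (0.0658) and without YAP5SA replicate 2 (0.13). *Mus81* (chr19:5482345-5488402, minus strand), the catalytic subunit, gave 118 and 134 CPM in GFP, 144 and 155 in YAP6SA, and 113 and 88.7 in YAP5SA. Here the YAP5SA pair lay below all other libraries, at -0.33 ± 0.17 against GFP (edgeR FDR 0.19). The ratio of *Eme1* to *Mus81* in RPKM was 0.00576 and 0.0145 in GFP, 0.0137 and 0.00809 in YAP6SA, and 0.0357 and 0.0628 in YAP5SA, so that even there the transcript of the regulatory subunit was far the rarer. Whether the 2 genes' changes differ from each other was not tested.

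In the Fanconi anaemia pathway 3 of 5 members rose. *Fancd2* (chr6:113531682-113597017, plus strand), which is ubiquitinated at a stalled fork together with FANCI, had 3.63 and 4.44 CPM in GFP, 3.51 and 6.55 in YAP6SA, and 20.3 and 24.4 in YAP5SA. That is a gap with no overlap, and the log2 fold change of 2.47 ± 0.29 (5.54-fold, edgeR FDR 0.000734) was nearly the same in both batches, at 2.45 and 2.43. *Fanci*, which encodes its partner, gave 2.47 and 2.61 CPM in GFP, 1.58 and 0.667 in YAP6SA, and 3.05 and 5.10 in YAP5SA. The YAP6SA libraries were its lowest and the YAP5SA libraries its highest, but neither difference from GFP was past the threshold (YAP6SA -1.16 ± 0.56, edgeR FDR 0.842; YAP5SA 0.69 ± 0.52, edgeR FDR 0.376). Its counts are low, and exons of *Polg*, on the opposite strand, overlap 16% of its own. *Fanca* and *Fancb*, of the core complex that ubiquitinates FANCD2 and FANCI, rose by 1.12 ± 0.19 (edgeR FDR 0.00402) and 1.24 ± 0.31 (edgeR FDR 0.0196) on the log2 scale. *Fanca* had 16.6 and 20.8 CPM in GFP, 14.7 and 21.2 in YAP6SA, and 33.5 and 48.5 in YAP5SA, and *Fancb* ran from 4.51 to 6.05 CPM in those 4 libraries of GFP and YAP6SA and had 10.7 and 11.8 in YAP5SA. *Brip1*, the helicase that binds BRCA1, gave 3.63 and 3.85, 4.17 and 1.94, and 7.42 and 8.24 CPM. Its YAP5SA pair lay above the rest, at 1.07 ± 0.41 against GFP (edgeR FDR 0.0908). Without GFP replicate 2 the calls of *Fanca* (edgeR FDR 0.0675) and *Fancb* (edgeR FDR 0.173) were lost, and *Fancb* also lost its call without GFP replicate 1 (0.0806) or YAP5SA replicate 2 (0.0861).

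*Msh6* (chr17:87975062-87990892, plus strand) is the 1 member grouped under mismatch repair, since *Exo1*, which also acts there, is grouped with resection. It encodes a subunit of the complex that recognises single mispaired bases. It had 39.5 and 40.2 CPM in GFP, 35.3 and 32.6 in YAP6SA, and 53.6 and 84.5 in YAP5SA. The YAP5SA libraries were the highest and the YAP6SA libraries the lowest, and the log2 fold change in YAP5SA was 0.77 ± 0.20 (edgeR FDR 0.0234), 0.44 within batch 1 and 1.07 within batch 2. Without GFP replicate 2 it was 0.64 (edgeR FDR 0.237) and without YAP5SA replicate 2 it was 0.42 (edgeR FDR 0.173). Of the 6 other mismatch repair genes, *Exo1* not among them, 0 were called in either direction, with 0 at an unadjusted p under 0.05. Their median log2 fold change was -0.03.

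Of the 7 checkpoint and break signalling genes 4 rose in YAP5SA, among them both effector kinases and the ATR activator *Topbp1*. The sensor kinases *Atm* and *Atr* were not past the threshold, and whether they differ in response from the effectors was not tested. *Chek1* (chr9:36708482-36727065, minus strand) had 7.20 and 7.05 CPM in GFP, 9.06 and 12.7 in YAP6SA, and 26.0 and 38.9 in YAP5SA. The 3 groups did not overlap, in the order GFP, YAP6SA, YAP5SA. Its rise in YAP5SA was 2.15 ± 0.25 (4.43-fold, edgeR FDR 0.000677), whereas its difference in YAP6SA, 0.58 ± 0.25, had an unadjusted p of 0.0402 and an edgeR FDR of 0.822. *Atr*, the kinase that activates CHEK1, gave 104 and 126, 101 and 109, and 113 and 122 CPM, and its log2 fold change in YAP5SA was 0.03 ± 0.14 (edgeR FDR 0.888). *Chek1* in RPKM was thus 0.352 and 0.286 of *Atr* in GFP, 0.457 and 0.597 in YAP6SA and 1.17 and 1.63 in YAP5SA. These ratios rest on annotated exon lengths of 4635 bases for *Chek1* and 23629 for *Atr*. In CPM *Chek1* stayed below *Atr* in every library. *Chek2* had 6.20 and 6.59 CPM in GFP, 6.0 and 8.06 in YAP6SA, and 16.4 in both YAP5SA libraries (1.36 ± 0.27, edgeR FDR 0.00766, and 0.0802 without GFP replicate 2). *Atm*, which activates CHEK2, gave 13.0 and 15.3, 15.1 and 17.5, and 22.8 and 21.1 CPM. Its YAP5SA values were above the rest and its log2 fold change was 0.64 ± 0.22 (edgeR FDR 0.0645).

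*Topbp1* (chr9:103305215-103350428, plus strand) had 62.6 and 67.0 CPM in GFP, 67.3 and 68.0 in YAP6SA, and 134 and 184 in YAP5SA. GFP and YAP6SA differed by a log2 fold change of 0.06 ± 0.16 (edgeR FDR 0.965), and YAP5SA was higher than GFP by 1.28 ± 0.16 (edgeR FDR 0.000884). *H2afx* encodes the histone variant H2AX, which the checkpoint kinases phosphorylate beside a break, a mark that RNA counts do not measure. It gave 9.31 and 11.4, 10.2 and 9.03, and 17.6 and 18.3 CPM, with the YAP5SA pair on its own, at 0.79 ± 0.25 (edgeR FDR 0.0442). This call was the least stable of the 17, since it was lost in 5 of the 6 fits with 1 library left out (edgeR FDR 0.0682 to 0.289, called only without YAP5SA replicate 1), in the fit of the 4 libraries compared (0.0637), with DESeq2 (adjusted p 0.0529) and without the batch term (0.0562). *Trp53bp1*, whose product protects broken ends from resection and favours end joining, had 96.6 and 106 CPM in GFP, 88.2 and 103 in YAP6SA, and 77.1 and 84.5 in YAP5SA. It was lowest in YAP5SA, by -0.33 ± 0.14 (-0.33 within each batch), and was not past the threshold (edgeR FDR 0.121).

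Of the 3 remaining members *Rad18* and *Polq* rose and *Parp1* did not pass the threshold. *Rad18* (chr6:112619850-112696686, minus strand), the ubiquitin ligase that calls in bypass polymerases at stalled forks, passed the filter through YAP5SA alone. Its log2 fold change was the largest of the 30, 2.70 ± 0.54 (6.48-fold, edgeR FDR 0.00779). It rested on low counts, with 0.631 and 0.784 CPM in GFP, 1.98 and 1.15 in YAP6SA, and 3.91 and 5.27 in YAP5SA, in that order with no overlap, and its edgeR FDR was 0.0504 without GFP replicate 2. *Polq* (chr16:37011786-37095417, plus strand) encodes the polymerase of microhomology-mediated end joining, the error-prone path open to resected ends. It gave 11.9 and 7.31 CPM in GFP, 11.7 and 11.6 in YAP6SA, and 37.1 and 50.9 in YAP5SA, a rise of 2.20 ± 0.28 (4.59-fold, edgeR FDR 0.000998). *Parp1*, the abundant sensor of strand breaks, gave 53.4 and 56.5, 43.2 and 60.4, and 48.0 and 59.9 CPM, interleaved between the groups (-0.04 ± 0.16, edgeR FDR 0.896).

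The rise in YAP5SA was larger in batch 2 for most members. Each batch value sets 1 library against 1 other, and the matching shares of all genes were not counted. Within batches, the difference between YAP5SA and GFP had the same sign in both for 28 of the 30 members, positive in 25 and negative in 3, and it was larger in batch 2 for 20. The median of the 30 was 0.99 in batch 1 and 1.15 in batch 2, but that of the 7 checkpoint genes was 0.91 and 0.67. The widest gaps toward batch 2 were those of *Polq* (1.63 in batch 1 and 2.78 in batch 2), *Bard1* (1.52 and 2.58) and *Rad51ap1* (1.03 and 2.05). For each of these the GFP level was higher in batch 1 than in batch 2, and the YAP5SA level was higher in batch 2. *Eme1* was the main departure, at 2.33 and 1.45. The proliferation markers showed the same tilt, with a median difference of 1.34 in batch 1 and 2.34 in batch 2, and the CM markers were at their lowest in the YAP5SA library of batch 2. Their part in the batch difference was not tested. The batch term itself was called for 0 of the 30 members (4 at an unadjusted p under 0.05; edgeR called it for 27 of the 13323 genes).

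**Figure D3:**
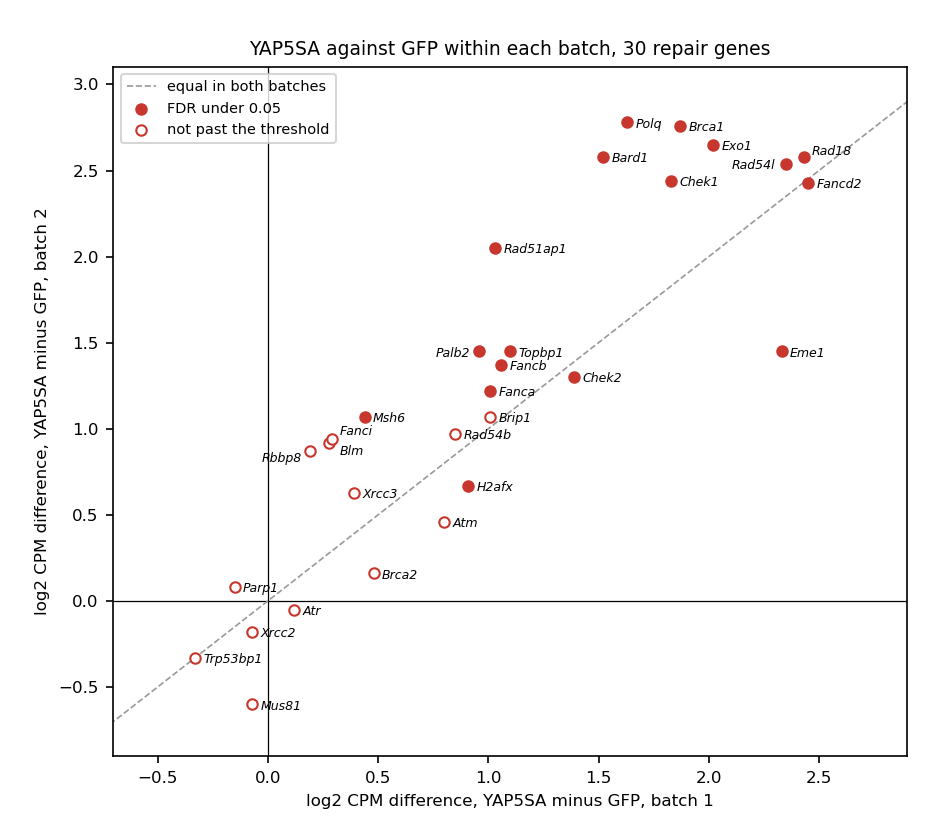
Difference in log2 CPM between the YAP5SA and the GFP library of batch 1 (horizontal) and of batch 2 (vertical) for each of the 30 genes, with filled symbols for FDR under 0.05 in the joint fit and a dashed line where both batches are equal. For 20 genes the symbol lies above the line, and all 17 filled symbols are positive in both batches.

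With YAP6SA, the form of the protein whose contact with TEAD is disrupted, no member was past the threshold. Of the 30 members 1 had an unadjusted p under 0.05 with a higher level (*Chek1*) and 0 with a lower one, where 3.86% and 2.07% of all genes did. The log2 fold changes ran from -1.16 (*Fanci*) to 1.16 (*Rad18*), and 19 of the 30 were smaller than 0.25 in size (the share of all genes was not counted). The YAP6SA library was above the GFP library of its batch both times for 10 members (29.4% of all genes). It was below it both times for 5, and the matching share of all genes was not counted. Both YAP6SA libraries were above both GFP libraries for 6 members (*Brca1*, *Bard1*, *Mus81*, *Topbp1*, *Chek1* and *Rad18*; 17.3% of all genes) and below them for 2 (*Fanci* and *Msh6*; 17.0% of all genes). In the 9 alternative fits and in the 6 that left out 1 library, the number of members called stayed 0. Over the 9 alternative fits at most 1.49% of all genes were called higher and 0.585% lower. The standard error was largest, 0.38 to 0.62, for *Brca1*, *Palb2*, *Brip1*, *Exo1*, *Rad18*, *Fanci* and *Eme1*, at which differences as large as those of *Fanci* and *Rad18* were not past the threshold.

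Set directly against YAP6SA, the YAP5SA libraries had 13 members higher and 1 lower, where 9% of all genes were called higher and 5.68% lower, and the median log2 fold change of the 30 was 1.19. This comparison shares the YAP5SA libraries with the one against GFP. Among the members called, the largest differences were those of *Fancd2* (2.20 ± 0.29, edgeR FDR 0.00163), *Rad54l* (2.11 ± 0.25, edgeR FDR 0.000983), *Exo1* (1.98 ± 0.49, edgeR FDR 0.0245), *Polq* (1.92 ± 0.28, edgeR FDR 0.00228) and *Bard1* (1.83 ± 0.27, edgeR FDR 0.00246). *Chek1* was higher by 1.57 ± 0.24 (edgeR FDR 0.003), *Topbp1* by 1.22 ± 0.16 (edgeR FDR 0.00165) and *Msh6* by 1.00 ± 0.20 (edgeR FDR 0.0115). *Brca1*, *Rad51ap1*, *Fanca*, *Chek2* and *H2afx* make up the 13. With 1 library left out, the difference ran from 1.22 to 2.83 for *Exo1* and from 1.13 to 2.28 for *Brca1*. *Mus81* was the 1 lower member, at -0.57 ± 0.17 (edgeR FDR 0.0474), and its call was lost without the batch term (0.0728), in the fit of 4 libraries (0.0629) and in 5 of the 6 fits with 1 library left out. Just outside the threshold were *Fancb* (1.02 ± 0.31, edgeR FDR 0.0507), *Brip1* (1.39 ± 0.42, edgeR FDR 0.0537) and *Fanci* (1.85 ± 0.56, edgeR FDR 0.0538). Without YAP6SA replicate 2 the number called was 6, all higher, and the share of all genes called higher was then 2.46%.

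The 30 genes differed widely in level. RPKM divides by the union of all annotated exons of a gene, so levels are compared between genes only roughly. Bases shared with other genes stay in that length, though their reads may be left out. In RPKM *Mus81* stood at 35.3 in GFP, *Parp1* at 10.4, *Msh6* at 9.18, *H2afx* at 7.49, *Xrcc3* at 7.36, *Trp53bp1* at 7.17, *Topbp1* at 5.77 and *Atr* at 4.86 (means of 2 libraries), and the other 22 were below 4. At the low end *Rad18* had 0.122, *Exo1* 0.206, *Eme1* 0.367, *Brca1* 0.375 and *Fanci* 0.440. The 17 genes that rose in YAP5SA had a median of 1.86 RPKM in the YAP6SA libraries (0.268 to 7.81), and the 13 that did not pass the threshold had 2.42 (0.194 to 41.8). Across the 30 genes the rank correlation between the YAP6SA level and the log2 fold change of YAP5SA against GFP was -0.60, and across 13310 genes with a length it was -0.22. A gene low in GFP and YAP6SA was tested only if it was high in YAP5SA, as with *Eme1* and *Rad18*. A negative value is therefore partly built in by the filter, and the members were chosen with earlier results known. Genes are not independent replicates, the points share libraries and depth, and genes of low level have the larger errors, so these values are descriptions.

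The rest of the pathway was covered by 133 further repair genes, of which 131 were tested. In YAP5SA against GFP 25 of the 131 were called higher (19.1%, beside 12.8% of all genes) and 9 lower (9.18% of all genes were), with a median log2 fold change of 0.11, and in YAP6SA against GFP 0 were called. In homologous recombination 8 of 34 rose and 2 fell. *Mms22l*, which acts in recombination at stalled forks, rose by 2.03 ± 0.30 (edgeR FDR 0.00197). *Zswim7*, of the Shu complex, fell by 0.98 on the log2 scale (edgeR FDR 0.011) and *Abraxas1*, the scaffold of a BRCA1 complex, by 0.91 (edgeR FDR 0.00431). In the Fanconi pathway 4 of 13 rose and 0 fell, among them *Fancc* by 1.13 ± 0.24 (edgeR FDR 0.0103) and *Fancg* by 0.88 ± 0.20 (edgeR FDR 0.0127). Of the 17 other checkpoint genes 7 rose and 1 fell. *Clspn*, the adaptor through which ATR reaches CHEK1, went from 3.36 and 3.33 CPM in GFP to 15.3 and 22.3 in YAP5SA (2.47 ± 0.32, edgeR FDR 0.000998). *Cdc25c*, the mitotic phosphatase that CHEK1 restrains, rose by 2.39 ± 0.34 (edgeR FDR 0.00161), and *Hus1*, of the clamp that activates ATR, fell by 0.72 (edgeR FDR 0.0233). The 30 members were chosen with earlier results known, so their share of 56.7% called higher cannot be set against the 19.1% of these lists as a test. *Mki67* and *Top2a*, markers of cycling cells, rose by 1.80 ± 0.18 (edgeR FDR 0.000294) and 2.15 ± 0.31 (edgeR FDR 0.0017) in the same comparison, sizes within the range of the called members.

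**Figure D4:**
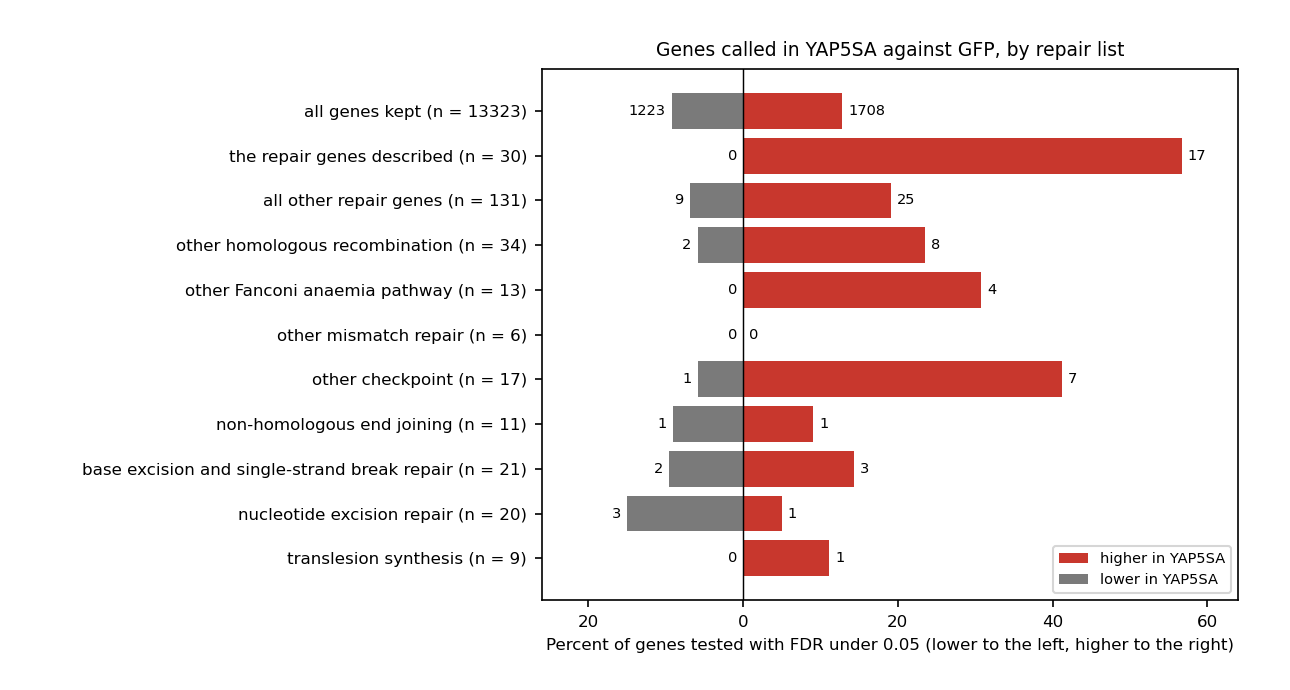
Percent of the genes tested in each repair list that were called higher (red, to the right) or lower (grey, to the left) in YAP5SA against GFP, with the number of genes beside each bar and the number tested in brackets. The 30 genes described have 17 called higher and 0 lower, the other checkpoint genes 7 and 1 of 17, and nucleotide excision repair 1 and 3 of 20.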

How the data were processed

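The authors aligned the reads with STAR to mm10 (Ensembl GRCm38.94 annotation) and deposited raw counts per gene; versions are not given in the sources used here. The 4 rows that name no gene (22.0% to 23.4% of a library's counts) were left out. Of the 54532 identifiers 54495 had a GENCODE M21 name. Genes with a median log2 CPM over 1 in at least 1 group (13323) entered a quasi-likelihood fit (edgeR 4.0.16 under R 4.3.3) of all 6 libraries with TMM scaling and group and batch terms, and p-values were adjusted by the Benjamini-Hochberg method at a threshold of 0.05. The labels give each library a batch number, equal to its replicate number, by which the libraries were paired. Deviations from the group means correlated by 0.368, 0.0985 and 0.175 between same-numbered libraries. Replicates differed by 27.7 to 43.6 times the counting noise (chi-square per degree of freedom). Within-batch differences are of log2 CPM with a prior count of 2. RPKM uses the union of exons in GENCODE M21. Alternatives used other scalings, filters, limma-voom (limma 3.58.1), DESeq2 1.42.0 and libraries left out. All 30 members are named, and of every other repair list at most 2 genes a direction with the largest change past the threshold among genes whose mean log2 CPM was 1 or more, so that a rarer gene with a larger change can go unnamed. The members and lists were chosen with earlier results of these data known. Some genes of the other lists are not reported here by name. Phosphorylation consensus sites in the members' proteins were not analysed here.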

Additional observations from a re-analysis of the deposited data

How the results depend on the processing

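In YAP6SA against GFP the number of members called was 0 under every scaling, filter, test, threshold and library left out that was tried, and the median of the 30 ran from 0.05 to 0.12 over the libraries left out. Over the scalings, filters and tests at most 0.405% of all genes were called higher in YAP6SA and 0.21% lower. In the fit of the 4 libraries compared, which leaves out YAP5SA, the shares were 1.49% and 0.585%. A count of 0 is thus not particular to the repair genes. In YAP5SA against GFP 17 were called, and 16 to 20 under the other scalings, filters and tests (7.27% to 15.5% of all genes were called higher). At a threshold of 0.01 there were 12 and at 0.1 there were 21. Without the replicate block (the batch term) 14 were called (9.99% of all genes higher), and those lost were *Palb2*, *Eme1* and *H2afx*. With 1 library left out 8 to 22 were called and the median ran from 0.83 to 1.24, and 7 of the 17 (*Brca1*, *Bard1*, *Rad54l*, *Fancd2*, *Topbp1*, *Chek1* and *Polq*) kept their call in all 6 such fits. The lone library of a group is then assumed to vary like the other groups. In YAP5SA against YAP6SA 14 were called, 12 without the replicate block, 14 to 22 under the other scalings, filters and tests (22 with the likelihood ratio test), 8 at a threshold of 0.01, and 6 to 21 with 1 library left out, when the median ran from 0.87 to 1.30. In this comparison 5.81% to 12.1% of all genes were called higher under the other scalings, filters and tests, and 6.39% without the replicate block. The cause of these shifts was not tested. No called member changed its direction under these alternatives. Sign changes were limited to members called under neither setting (24 in YAP6SA against GFP and 2 in each other comparison, all with a library left out). With 2 libraries a group, single samples could not be tested as outlying. Low counts limit *Eme1*, *Rad18*, *Exo1* and *Fanci*.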

Other observations

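In base excision and single-strand break repair 3 of 21 genes rose in YAP5SA OE CMs against GFP and 2 fell, shares close to those of all genes (12.8% and 9.18%). *Lig1*, the ligase that joins Okazaki fragments and repair patches, had 12.0 and 14.0 CPM in GFP, 18.5 and 16.4 in YAP6SA, and 52.1 and 80.1 in YAP5SA (log2 fold change 2.33 ± 0.22, edgeR FDR 0.000266), and *Neil3*, a glycosylase of replicating cells, rose by 1.28 ± 0.28 (edgeR FDR 0.0119). *Ung*, the uracil glycosylase, had 53.8 and 56.9 CPM in GFP, 62.3 and 50.8 in YAP6SA, and 28.6 and 21.5 in YAP5SA. The YAP5SA pair lay below the rest, and *Ung* fell by 1.16 on the log2 scale (edgeR FDR 0.0023). *Neil1*, a glycosylase for oxidised bases, fell by 0.58 (edgeR FDR 0.0446). In nucleotide excision repair 1 of 20 genes rose and 3 fell. *Ddb1*, a damage sensor that is also a subunit of CUL4 ubiquitin ligases, went from 229 and 223 CPM in GFP to 409 and 599 in YAP5SA (1.14 ± 0.19, edgeR FDR 0.003). *Xpc*, the damage sensor of the route, fell by 0.62 (edgeR FDR 0.0268) and *Gtf2h4*, of the TFIIH helicase complex, by 0.78 (edgeR FDR 0.033).

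Of the 11 genes of non-homologous end joining 1 rose and 1 fell, which is also close to the 12.8% and 9.18% of all genes. *Polm*, a gap-filling polymerase, rose by 0.60 ± 0.16 (edgeR FDR 0.0269) and *Prkdc*, the DNA-dependent protein kinase, fell by 0.59 (edgeR FDR 0.0302). *Nhej1*, which aligns the ends for the ligase, was lower in YAP5SA when set against YAP6SA (-0.90 ± 0.27, edgeR FDR 0.0492). Of 9 genes of translesion synthesis *Polk*, a bypass polymerase, was the 1 that rose (0.97 ± 0.22, edgeR FDR 0.0145) and 0 fell.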
